A study of Homo sapiens with 74 samples.

Results

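Interferon-stimulated genes are the genes that a cell switches on after interferon binds its receptor. They were followed here as a fixed list of 39 genes, taken by symbol from the 28131 genes in the count tables of 2 human cell lines, and each of the 39 was found in both tables. The list was divided by known function into RNA sensors (3 genes), signalling and transcription factors (4), the ISG15 system (4), PARP and DTX3L proteins (3), IFIT proteins (4), IFITM proteins (3), OAS proteins (4), MX proteins (2), other antiviral effectors (6) and other interferon-induced genes (6).

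Type I and type III interferons act through JAK1 and TYK2 on STAT2, which with IRF9 is part of a complex, ISGF3, that binds the interferon-stimulated response element (ISRE) of target promoters. Interferon gamma acts through JAK1 and JAK2 and the gamma-activated site (GAS). The products of these genes sense viral RNA, block entry, translation or release of viruses, degrade RNA, or pass the signal on, and many of them are also transcribed at a low level in cells that have met no interferon.

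K562 and HEL are established human erythroleukaemia cell lines. The study asked about the DOT1L complex in transcription. DOT1L is the enzyme that methylates lysine 79 of histone H3, and ENL, the product of MLLT1, is a reader of acylated histones that is found with it. Polyadenylated RNA was sequenced in 5 groups. K562 cells were labelled wild type (3 deposited columns, of which the second and the third hold identical counts and were counted as 1 library, so n = 2), DOT1L-/- (n = 3) and ENL-/- (n = 3). HEL cells were labelled control (n = 2) and DOT1L knockdown (n = 2). No interferon or other agent is named for any group. The means of the knockout and of the knockdown, and whether a knockout line is 1 clone, are not given in the sources used here. The labels do not say whether the replicates of a group were separate cultures, so the p-values below measure the spread between these libraries, which may be technical. The K562 control and DOT1L-/- labels carry the name of a sequencing lane, whereas those of ENL-/- carry none, so a batch and the ENL knockout cannot be told apart.

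Library totals were 15404944 to 29236703 fragments in K562 and 12151495 to 12811688 reads in HEL. DOT1L messenger RNA, in TMM-scaled CPM (counts scaled to a common library size), was 269.8 and 256 in the K562 controls and 186, 176 and 184 in the DOT1L knockouts, a log2 fold change of -0.53 ± 0.057 (SE). It was 97.5 and 87.4 in the HEL controls and 29.1 and 30.0 in the knockdowns, a change of -1.64 ± 0.064. MLLT1 was 214 and 219 in the K562 controls and 153, 157 and 154 in the ENL knockouts, a change of -0.48 ± 0.051. The knockout lines thus still held transcripts of the targeted gene, and which part was deleted is not given in the sources used here. Of 8 erythroid markers, among them GATA1, KLF1 and the fetal globins, none was at 0 in any group. The summed CPM of the B cell and T cell markers (5 genes) lay between 1.03 and 73.2 over all libraries, and MS4A1 was at 0 throughout.

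The sequences shown next hold matches to the ISRE, and were chosen for it, from 5 genes that rose in DOT1L-/- K562 cells and 2 that fell. They come from RefSeq (GRCh38.p14), matched by symbol, and are written 5′ to 3′ on the strand of the gene. Each ends before the transcription start that lies farther upstream in RefSeq or in the count tables' gene models. For IFITM3, whose matches lie inside the first exon of the tables' model, a stretch of 30 bases is given. Capitals mark ISRE matches, here GAAANNGAAA on either strand.
DDX60: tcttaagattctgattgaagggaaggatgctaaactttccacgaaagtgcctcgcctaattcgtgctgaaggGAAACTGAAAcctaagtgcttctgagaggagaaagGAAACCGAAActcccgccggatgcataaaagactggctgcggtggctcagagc
OAS3: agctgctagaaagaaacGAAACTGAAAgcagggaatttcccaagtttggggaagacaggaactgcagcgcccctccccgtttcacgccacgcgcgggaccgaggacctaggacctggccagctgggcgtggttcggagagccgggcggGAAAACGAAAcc
SAMD9: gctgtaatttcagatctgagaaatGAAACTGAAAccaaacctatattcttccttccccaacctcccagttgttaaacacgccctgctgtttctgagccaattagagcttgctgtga
IFI6: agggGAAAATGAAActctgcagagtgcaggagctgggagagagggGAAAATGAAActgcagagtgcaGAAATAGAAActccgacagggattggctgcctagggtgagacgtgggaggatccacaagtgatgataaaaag
IFIT1: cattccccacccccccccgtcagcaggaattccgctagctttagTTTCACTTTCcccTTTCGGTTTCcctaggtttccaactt
BST2: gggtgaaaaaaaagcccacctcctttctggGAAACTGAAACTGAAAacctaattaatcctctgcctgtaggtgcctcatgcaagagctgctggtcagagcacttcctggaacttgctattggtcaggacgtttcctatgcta
IFITM3: agGAAAAGGAAActgttgaGAAACCGAAAc
The stretches lie at chr4:168318753-168318912 (DDX60, minus strand), chr12:112938314-112938473 (OAS3, plus strand), chr7:93118024-93118139 (SAMD9, minus strand), chr1:27672214-27672352 (IFI6, minus strand), chr10:89392463-89392545 (IFIT1, plus strand), chr19:17405649-17405790 (BST2, minus strand) and chr11:320885-320914 (IFITM3, minus strand). DDX60, OAS3, IFIT1 and IFITM3 show 2 matches each, IFI6 shows 3 and SAMD9 shows 1. The 2 matches of BST2 overlap and appear as 1 run of capitals.

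Over the window from 250 bases before to 50 bases after the RefSeq start, 31 of the 39 genes had an entry. IRF7, USP18, IFIT2, IFITM2, OAS2, OASL, MX2 and TRIM22 were without one. An ISRE match was present in 20 of the 31, and the same letters occurred in 3.57% of the 35116 promoter windows in the table. A GAS match (TTCNNNGAA, which reads the same on both strands) was present in 9 of the 31, and in 7.66% of the windows in the table. Both motifs were found in 5 genes, and 4 pairs of an ISRE and a GAS match overlapped, in IFITM1, BST2 and IFI27. These matches describe letters in a window and are not measured binding sites.

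In the controls, most of these messages stood at different levels in the 2 cell lines. The mean CPM of a gene was higher in HEL than in K562 for 33 of the 39 genes, at least 4 times higher for 26 of them, while 6 were higher in K562, 4 of these at least 4 times. The K562 table counted fragments and the HEL table reads, and the tables were scaled separately, so these levels are set side by side without a test. The same counts were not made over all genes, so they do not set the list apart from other genes. In K562 controls 22 genes reached 1 CPM and 17 did not. In HEL controls 34 reached it and 5 did not.

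On the scale of CPM per kilobase of exonic length, which allows different genes to be compared, the median over the 39 genes was 0.582 in K562 controls and 7.98 in HEL controls. K562 was led by IFITM1 at 656 ± 25.4 (SD, n = 2), IFITM3 at 164 ± 0.727 and BST2 at 112 ± 9.97. These encode 2 membrane proteins that hinder virus entry and tetherin, which holds budding virus at the cell surface. IFITM1 alone supplied 46.1% of the summed CPM of the 39 genes in K562 controls. HEL was led by IFITM2 at 203 ± 3.31 and IFITM3 at 151 ± 2.28, with BST2 at only 3.51 ± 0.758. The IFITM genes are close copies of each other, and the counting could have divided reads between them, so their separate values are uncertain.

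The same scale gave the highest gene of each functional group in the controls. Among the sensors it was IFIH1 (MDA5, which binds long double-stranded RNA), at 2.87 ± 0.0673 in K562 and 17.3 ± 1.38 in HEL. STAT2 led the factors at 11.3 ± 0.763 and 21 ± 0.425, and ISG15, a ubiquitin-like modifier, led its system at 19.5 ± 0.704 and 15.4 ± 2.02. For these genes HEL was above K562 except for ISG15, where K562 was above HEL. IFIT3, which works in a complex on viral RNA, led the IFIT genes at 0.677 ± 0.00815 and 10.8 ± 1.12. OAS3, whose product makes the second messenger that activates RNase L, led the OAS genes at 1.83 ± 0.253 and 7.36 ± 0.383. MX2, a dynamin-like GTPase that acts on incoming viral capsids, led the MX pair at 0.0345 ± 0.0101 and 15.9 ± 0.0884. In the order of the 39 genes in HEL controls MX2 ranked 11 and MX1 34. In K562 controls MX2 ranked 29, and MX1 was at 0, tied with OAS1, IFI44 and IFI44L at the end of the order. PARP14 (K562, 6.41 ± 0.0863) and DTX3L (HEL, 25.8 ± 1.08) led the group of ADP-ribosylation and ubiquitin ligase proteins. IFI35 (K562, 5.55 ± 1.05), IFI44 (HEL, 24.5 ± 0.013) and, after BST2 in K562, EIF2AK2 in HEL (15.7 ± 0.888), which encodes the kinase PKR, led the last 2 groups.

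**Figure D1:**
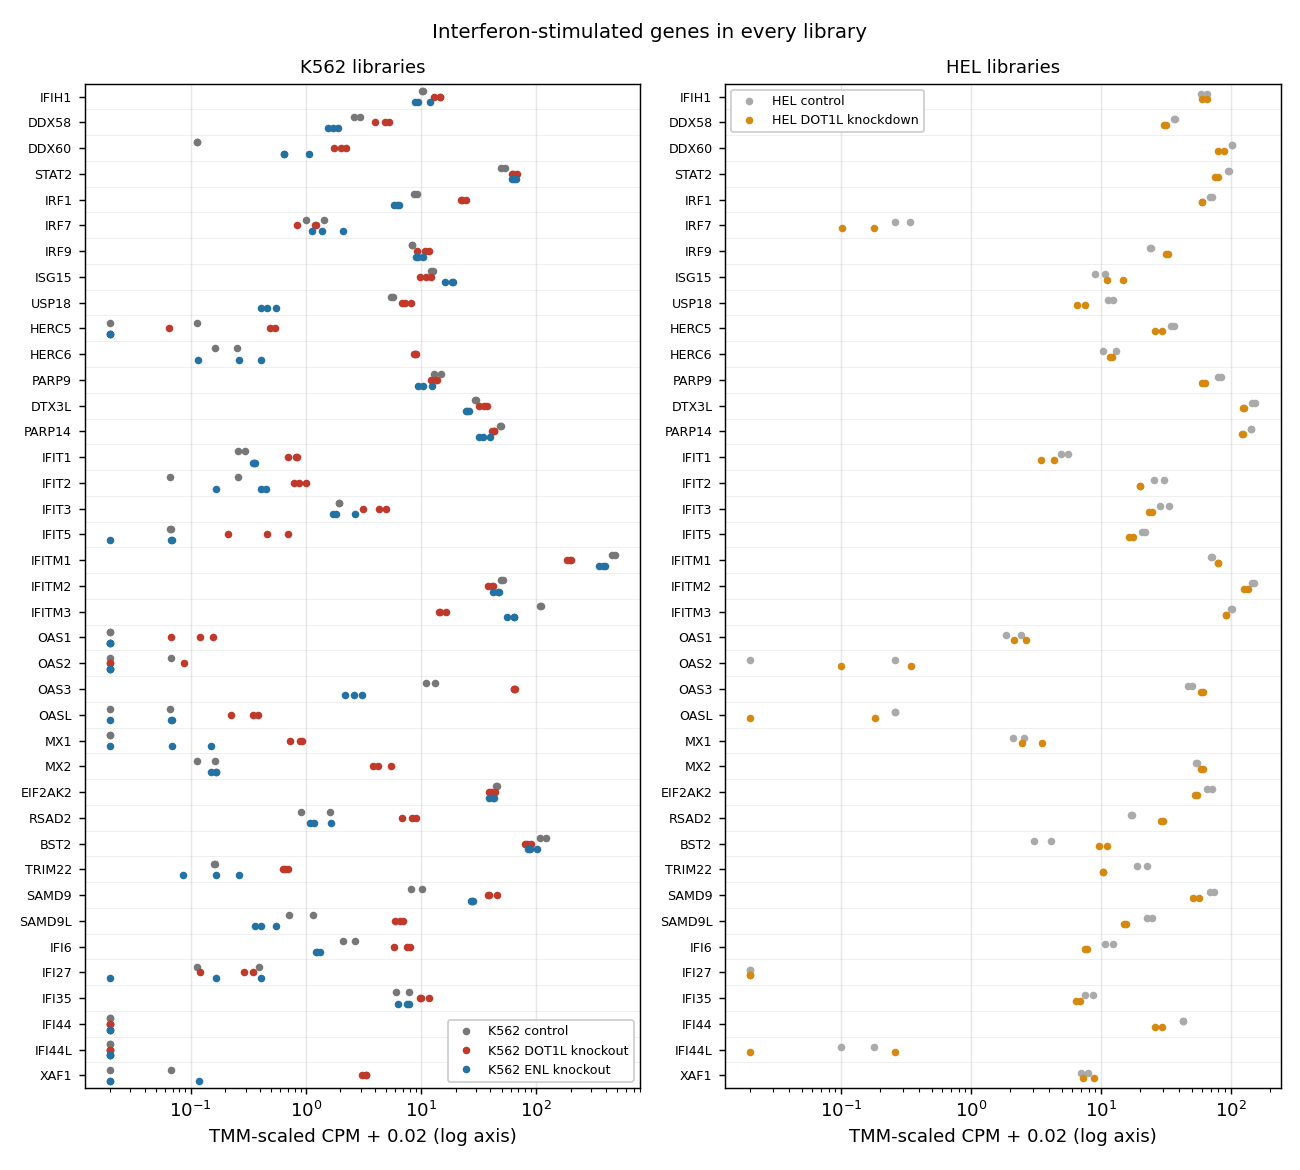
TMM-scaled CPM plus 0.02 (log axis) of the 39 genes in the 8 K562 libraries (left) and the 4 HEL libraries (right), 1 point per library, genes ordered by functional group. In K562 the red points (DOT1L knockout) stand to the right of the grey controls for the MX genes, HERC6, XAF1 and the SAMD9 genes and to the left for IFITM1 and IFITM3, while in HEL the points of the groups lie close together for most genes and stand apart for BST2 and TRIM22.

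The first comparison set DOT1L-/- K562 cells against K562 controls. Of the 39 genes, 32 had enough counts to be tested, and 27 of these passed the threshold of an adjusted p under 0.05 in edgeR's quasi-likelihood test (Benjamini-Hochberg over the 14301 genes tested), 22 higher and 5 lower. Of all genes tested, 51.1% passed, 26.9% higher and 24.2% lower. With a log2 fold change of at least 1 there were 15 higher genes and 2 lower ones, against 11.7% and 4.09% of all genes tested. The median log2 fold change was 0.94 over the 32 genes and 0.011 over all genes tested. Some of the 32 were tested only because they had counts in the knockouts, so the counts and the median describe them and carry no further weight. RNA was taken from whole cultures, so a change in the number of cells that express a gene cannot be told apart from a change in RNA per cell.

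All 3 RNA sensors rose. DDX60, a helicase linked to sensing of viral RNA by RIG-I, was at 0.093 and 0.0946 CPM in the controls and 1.73, 2.23 and 1.99 CPM in the knockouts (2 and 2 against 38, 66 and 42 fragments). Its log2 fold change was 4.33 with SE 0.44 and adjusted p = 2.69e-06 in edgeR's test. The groups were far apart, although the controls rested on 4 fragments in all, which gives a ratio of 21.4 with an exact 95% counting interval of 8.18 to 79.6. DDX58, which encodes RIG-I, was at 2.6 and 2.93 and 3.95, 4.9 and 5.3 CPM, a log2 fold change of 0.77 ± 0.18. IFIH1 was at 10.5 and 10.1 and 13, 14.7 and 14.7 CPM, a change of 0.46 with SE 0.12 and adjusted p = 0.00647. Neither gene's groups overlapped, but the IFIH1 call was lost without control replicate 2 (adjusted p = 0.0525).

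Among the signalling and transcription factors IRF1 stood out. IRF1, a transcription factor induced by interferon gamma through a GAS element, was at 8.74 and 9.27 CPM in the controls and 24.3, 22.8 and 22.1 CPM in the knockouts, a log2 fold change of 1.36 with SE 0.097 and adjusted p = 7.51e-08 in edgeR's test. STAT2, the ISGF3 subunit that carries the activation domain, was at 49.1 and 54.1 and 63.2, 62.1 and 67.6 CPM, a change of 0.32 with SE 0.07 and adjusted p = 0.002. All 3 knockout libraries exceeded both controls for each of these genes. IRF9, the DNA-binding subunit of ISGF3, was at 8.42 and 8.37 and 9.18, 10.8 and 11.6 CPM, with a change of 0.33 with SE 0.12 and adjusted p = 0.0407. That call was lost without any 1 of 5 libraries (both controls, DOT1L-/- replicates 2 and 3 or ENL-/- replicate 2), where the adjusted p ran from 0.0562 to 0.147. IRF7, the factor that amplifies type I interferon production, was at 0.976 and 1.42 and 0.818, 1.22 and 1.18 CPM with overlapping groups (adjusted p = 0.74). IRF7 and IFI27 are each listed on a chromosome and on an alternate sequence of it, so their counts may be too low. How reads that match both were counted is not given in the sources used here.

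Within the ISG15 system the 4 genes gave different results. HERC6, a HECT-domain ubiquitin ligase, was at 0.232 and 0.142 CPM in the controls and 8.63, 8.99 and 8.8 CPM in the knockouts, a log2 fold change of 5.51 with SE 0.29 and adjusted p = 3.37e-09. The knockout libraries lay within a narrow band and above 8 CPM, while the controls held 5 and 3 fragments. The ratio of the summed counts was 47.1, with an exact 95% interval of 23.7 to 109. USP18, which removes ISG15 from proteins and damps receptor signalling, was at 5.67 and 5.44 and 7.18, 6.76 and 8.14 CPM, a change of 0.40 with SE 0.14 and adjusted p = 0.0247. Its call was lost without control replicate 1, control replicate 2 or DOT1L-/- replicate 3 (adjusted p 0.0803 to 0.129). ISG15 itself was at 12.1 and 12.7 and 12.2, 9.76 and 11.1 CPM with overlapping groups (adjusted p = 0.218). HERC5, the ligase that joins ISG15 to its targets, had 0 and 2 fragments in the controls and 1, 14 and 11 in the knockouts. DOT1L-/- replicate 1 was as low as the controls and the other 2 knockouts were higher. Its log2 fold change was 2.78 with SE 1.1 and adjusted p = 0.0605, and the ratio of its sums was 7.62 with a 95% interval of 1.91 to 66.3.

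PARP9, DTX3L and PARP14 lie on chromosome 3, PARP14 at 105623 bases from DTX3L, and moved little. DTX3L, a ubiquitin ligase that pairs with PARP9, was at 29.6 and 30.0 CPM in the controls and 32.2, 37.2 and 35 CPM in the knockouts (0.23 with SE 0.082 and adjusted p = 0.0344). PARP14, a mono-ADP-ribosyltransferase, was at 49.9 and 48.9 and 41.3, 43.1 and 42.8 CPM (-0.22 with SE 0.083 and adjusted p = 0.0407), and PARP9 was at 12.9 and 14.9 and 13.5, 12.1 and 13.7 CPM (adjusted p = 0.586). DTX3L was thus slightly higher in the 3 knockouts, PARP14 slightly lower, and the PARP9 groups overlapped. Each call was lost without any 1 of 5 libraries. For DTX3L these were both controls, DOT1L-/- replicates 2 and 3 and ENL-/- replicate 2 (adjusted p 0.0543 to 0.158). For PARP14 they were both controls and each DOT1L-/- replicate (adjusted p 0.0712 to 0.161). DTX3L and PARP9 run on opposite strands and share 185 exonic bases, and whether the counting used strand is not given in the sources used here.

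The IFIT genes, whose products bind viral RNA that lacks host cap marks, lie together on chromosome 10. IFIT2 was at 0.0465 and 0.236 CPM in the controls and 0.772, 0.98 and 0.852 CPM in the knockouts, a log2 fold change of 2.59 with SE 0.56 and adjusted p = 0.00162. The IFIT2 controls held 1 and 5 fragments, the ratio of summed counts was 6.25 with a 95% interval of 2.72 to 17.7, and the fitted log2 change was 1.86 without control replicate 1 and 4.07 without control replicate 2. IFIT1 was at 0.279 and 0.236 and 0.681, 0.811 and 0.805 CPM (1.55 with SE 0.39 and adjusted p = 0.00435), and IFIT3 at 1.91 and 1.94 and 3.13, 4.97 and 4.26 CPM (1.11 with SE 0.24 and adjusted p = 0.00166). These 3 rose, with no overlap between the groups, and IFIT1 and IFIT2 remained under 1 CPM in every library. IFIT5 had too few counts to be tested, with 1 and 1 fragments in the controls and 15, 13 and 4 in the knockouts. The ratio of its sums was 9.38, with a 95% interval of 2.39 to 80.8.

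The IFITM genes, neighbours on chromosome 11, went the other way. IFITM3, which blocks fusion of virus with the endosome membrane, was at 109 and 109.6 CPM in the controls and 16.3, 14.5 and 14.2 CPM in the knockouts, a log2 fold change of -2.86 with SE 0.081 and adjusted p = 1.81e-11 in edgeR's test, or 7.28-fold lower. IFITM1, the cell-surface member of the family, was at 457 and 483 and 195, 199.5 and 185 CPM (-1.28 with SE 0.061 and adjusted p = 1.38e-09), or 2.43-fold lower. IFITM2 was at 51.6 and 49.5 and 41.8, 38.3 and 41.3 CPM (-0.32 with SE 0.075 and adjusted p = 0.00273). All 3 fell, and no knockout library reached the lower control for any of them.

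Of the OAS genes, OAS3 alone could be tested. It was at 10.9 and 13.3 CPM in the controls and 65.2, 64.5 and 64.3 CPM in the knockouts, a log2 fold change of 2.42 with SE 0.1 and adjusted p = 5.48e-10, or 5.34-fold higher. The 3 knockouts agreed to within about 1 CPM and stood clear of both controls. OAS1, its neighbour on chromosome 12, had 0 and 0 fragments in the controls and 3, 3 and 1 in the knockouts. Its knockout level was 1.37 times the floor of 3 counts summed over the controls. That ratio leaves out the counting error of the knockouts, so these few fragments do not settle a difference. OASL, an OAS-like protein without the enzyme's activity, had 1 and 0 and 8, 6 and 7 fragments, a ratio of 12.3 (95% interval 1.98 to 509). OAS2 had 0 and 1 and 0, 2 and 0 fragments, too few to tell a difference.

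The MX genes lie 11166 bases apart on chromosome 21, and both rose. MX1, a GTPase that traps viral nucleocapsids, had 0 and 0 fragments in the controls and 19, 21 and 19 in the knockouts. Its knockout level was 11.5 times the same floor, counting error of the knockouts left out (adjusted p = 0.000116 in edgeR's test). MX2 was at 0.093 and 0.142 CPM in the controls and 3.82, 4.26 and 5.49 CPM in the knockouts, a log2 fold change of 5.20 with SE 0.36 and adjusted p = 5.96e-08. Its summed counts gave a ratio of 38.2 with a 95% interval of 16.2 to 119. In the K562 controls both genes were at or near 0 in each library, and in each of the 3 knockouts both were detected.

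Among the other antiviral effectors, 4 of 6 rose. RSAD2, which encodes viperin, an enzyme that makes a chain-terminating nucleotide, was at 0.883 and 1.61 CPM in the controls and 6.86, 8.95 and 8.38 CPM in the knockouts (2.70 with SE 0.23 and adjusted p = 5.32e-07). SAMD9, a restriction factor of poxviruses, was at 8.14 and 10.2 and 38.8, 45.6 and 37.8 CPM (2.15 with SE 0.12 and adjusted p = 4.77e-09). Its neighbour and relative SAMD9L was at 0.697 and 1.14 and 5.91, 7.03 and 6.58 CPM (2.83 with SE 0.22 and adjusted p = 1.87e-07). For these 3 genes each knockout library was more than 3 times the higher control. TRIM22, a ubiquitin ligase with antiviral activity, had 3 and 3 fragments in the controls and 14, 20 and 13 in the knockouts (2.15 with SE 0.5 and adjusted p = 0.00281), a ratio of 4.59 with a 95% interval of 1.96 to 13.1. BST2 fell, from 122 and 107 to 90.7, 82.6 and 80.0 CPM (-0.44 with SE 0.081 and adjusted p = 0.000498). EIF2AK2 was at 44.6 and 45.7 and 39.2, 44.2 and 40.9 CPM (adjusted p = 0.194).

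In the last group XAF1, a pro-apoptotic protein that antagonises XIAP, had 0 and 1 fragments in the controls and 73, 91 and 70 in the knockouts (adjusted p = 3.67e-07). The ratio of its sums was 137, with a 95% interval of 24.4 to 5442 that reflects the single control fragment. Its fitted log2 change, 6.79, was 5.92 without control replicate 1 and, without control replicate 2, was set against a group at 0. IFI6, a mitochondrial and endoplasmic reticulum protein that limits flavivirus replication, was at 2.09 and 2.65 and 7.59, 7.97 and 5.87 CPM (1.60 with SE 0.18 and adjusted p = 7.55e-06). IFI35 was at 7.86 and 6.01 and 11.7, 9.8 and 10.1 CPM (0.60 with SE 0.14 and adjusted p = 0.00331), and its call was lost without control replicate 2 (adjusted p = 0.0668). These 3 were higher in each knockout than in either control. IFI27 had 8 and 2 and 6, 3 and 7 fragments, in overlapping groups, and IFI44 and IFI44L had none in any K562 library.

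**Figure D2:**
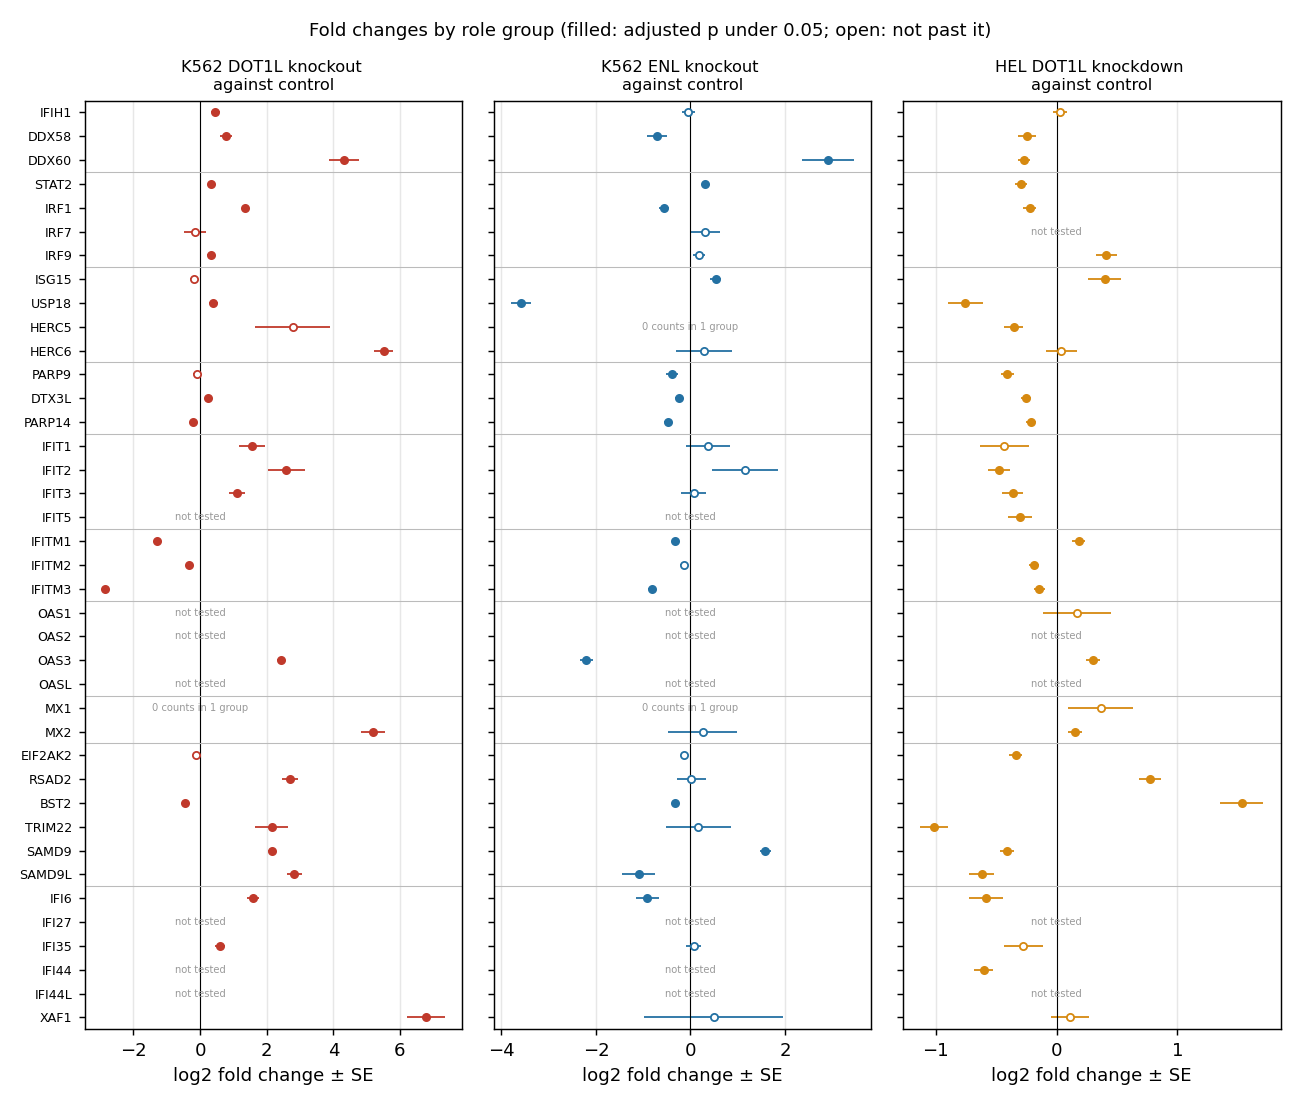
Log2 fold changes with their standard errors from edgeR for the 39 genes, ordered by functional group, in 3 comparisons (filled points passed the threshold, open points did not, and the 3 horizontal scales differ). DOT1L-/- K562 cells had 22 genes higher and 5 lower, ENL-/- cells 4 higher and 12 lower, and DOT1L knockdown HEL cells 7 higher and 20 lower.

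The calls were also counted by level in the controls. Of the 17 genes under 1 CPM in K562 controls, 10 were tested and 9 were higher in DOT1L-/- cells, while 49.9% of all tested genes of that class were higher. Of the 10 genes between 1 and 10 CPM, 9 were higher, against 32.1% of all genes of that class. Of the 12 genes at 10 CPM or more, 4 were higher and 5 lower, against 19.7% and 31.0%. The lowest class was tested largely through counts in the knockouts, so its share describes the filter as well as the genes.

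More of the genes were detected in DOT1L-/- cells while their summed level was lower. Each K562 control had 10 or more fragments for 23 of the 39 genes, and the knockouts had them for 32, 33 and 32. This cut is not scaled for depth, and DOT1L-/- replicate 2 was the deepest library, with 29236703 fragments. Over the whole table, 16975 and 16977 genes had any count in the controls and 17896, 18243 and 18045 in the knockouts. Detection thus also rose outside the list, and the share of all genes at 10 fragments was not computed. The controls had a summed CPM over the 39 genes of 1008 and 1032, and the knockouts 766, 777 and 756. IFITM1, IFITM3 and BST2, the 3 genes with the highest CPM in the controls, all fell.

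**Figure D3:**
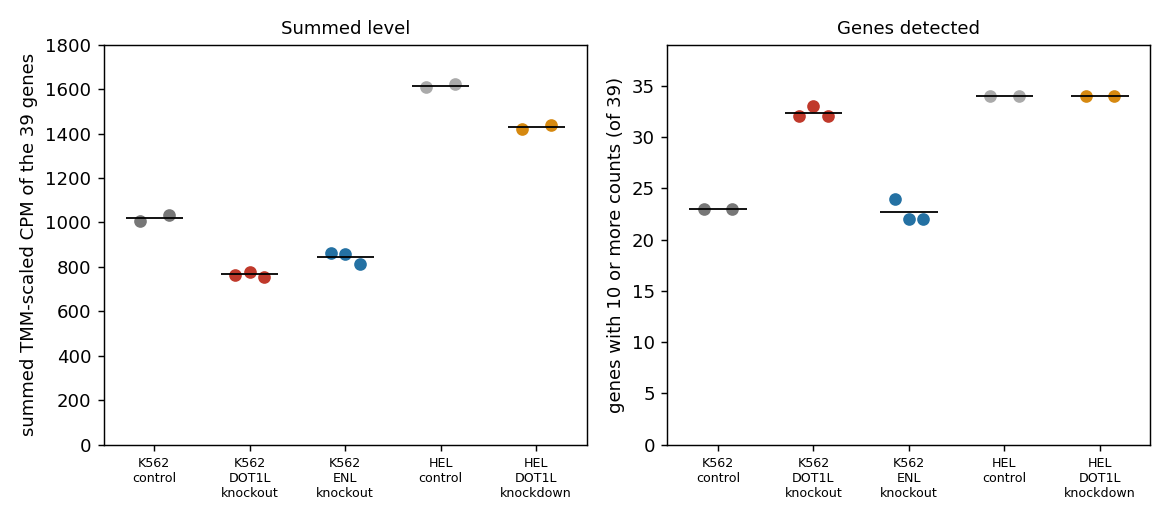
Left, the summed TMM-scaled CPM of the 39 genes in each library; right, how many of them had 10 or more counts (points are libraries and bars are group means). The DOT1L-/- K562 libraries lie below the K562 controls on the left (756 to 777 against 1008 to 1032) and above them on the right (32 to 33 against 23).

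Markers of other cells also differed between these groups. The summed CPM of 3 monocyte markers was 33.2 to 36.0 in K562 controls, 292 to 323 in DOT1L-/- cells and 19.5 to 20.6 in ENL-/- cells. LYZ, which encodes lysozyme, gave nearly all of it, at 35.4 and 32.6 CPM in the controls and 317, 323 and 291 CPM in the DOT1L knockouts. CD14 and CSF1R were under 1 CPM in every K562 library. The 8 erythroid markers summed to 5442 to 5841 CPM in the controls and 6720 to 7181 CPM in the DOT1L knockouts, and 3 epithelial markers to 333 to 340 and 306 to 322 CPM. Among the erythroid markers TFRC fell, from 2234 and 2395 to 1856, 2022 and 1886 CPM. Each of the others was higher in every DOT1L knockout than in both controls. The lymphocyte sum was 53.9 to 55.6 and 17.3 to 21.8 CPM, nearly all of it CD3D. The part of these shifts in the changes of the 39 genes was not tested.

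ENL-/- K562 cells were compared with the same controls, so their values and those of the DOT1L knockouts are not independent. Of the 32 genes tested, 16 passed the threshold, 4 higher and 12 lower, where 41.0% of all genes tested passed, 18.8% higher and 22.2% lower. With a log2 fold change of at least 1 there were 2 higher and 3 lower, against 2.89% and 8.11%. The median over the 32 genes was -0.01, and 0.0028 over all genes tested.

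The largest falls were in USP18 and OAS3. USP18 was at 5.67 and 5.44 CPM in the controls and 0.531, 0.438 and 0.391 CPM in the ENL knockouts, a log2 fold change of -3.58 with SE 0.22 and adjusted p = 2.44e-08 in edgeR's test, or 12.0-fold lower. OAS3 was at 10.9 and 13.3 and 3.04, 2.19 and 2.61 CPM (-2.21 with SE 0.14 and adjusted p = 3.23e-08), or 4.62-fold lower. In each case every ENL-/- library was far below both controls. SAMD9L was at 0.697 and 1.14 and 0.531, 0.341 and 0.391 CPM (-1.10 with SE 0.36 and adjusted p = 0.0247), and IFI6 at 2.09 and 2.65 and 1.21, 1.31 and 1.24 CPM (-0.91 with SE 0.24 and adjusted p = 0.00768). The SAMD9L call was lost without control replicate 2 or ENL-/- replicates 2 or 3 (adjusted p 0.0521 to 0.267), and the IFI6 call without control replicate 2 (adjusted p = 0.0852).

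Smaller falls were seen in IFITM3, from 109 and 109.6 to 64.4, 64.6 and 56.1 CPM (-0.82 with SE 0.075 and adjusted p = 1.37e-06), and in IRF1, from 8.74 and 9.27 to 6.38, 6.13 and 5.8 CPM (-0.56 with SE 0.11 and adjusted p = 0.00117). IFITM1 was at 457 and 483 and 384, 394 and 350.0 CPM (-0.32 with SE 0.061 and adjusted p = 0.000845). These 3 genes had no overlap between the groups. BST2 was at 101, 89.1 and 85.5 CPM in the ENL knockouts (-0.32 with SE 0.082 and adjusted p = 0.00686), a call lost without control replicate 1 (adjusted p = 0.121). DDX58, at 1.55, 1.7 and 1.89 CPM (-0.70 with SE 0.21 and adjusted p = 0.0167), lost its call without control replicate 2 or ENL-/- replicate 1 (adjusted p 0.0507 and 0.109). All 3 genes of the PARP and DTX3L group were lower, PARP14 at 34.8, 32.1 and 39.8 CPM (-0.48 with SE 0.085 and adjusted p = 0.000494), DTX3L at 24.3, 26.2 and 25.1 CPM (adjusted p = 0.0353) and PARP9 at 9.42, 10.3 and 12.4 CPM (adjusted p = 0.0256). The DTX3L call was lost without either control or ENL-/- replicates 1 or 3 (adjusted p 0.0587 to 0.152). The PARP9 call was lost without control replicate 2 or ENL-/- replicates 1 or 2 (adjusted p 0.0760 to 0.218).

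The 4 genes that rose were DDX60, SAMD9, ISG15 and STAT2. SAMD9 was at 8.14 and 10.2 CPM in the controls and 26.9, 28 and 27.6 CPM in the ENL knockouts (1.58 with SE 0.12 and adjusted p = 2.01e-07). DDX60 was at 0.093 and 0.0946 and 0.628, 0.633 and 1.04 CPM (2.92 with SE 0.55 and adjusted p = 0.0008), a ratio of summed counts of 7.91 with a 95% interval of 2.87 to 30.4. ISG15 was at 12.1 and 12.7 and 18.6, 16.3 and 19 CPM (0.53 with SE 0.11 and adjusted p = 0.0022). Each ENL-/- library exceeded both controls for these genes. STAT2 was at 67.1, 61.7 and 63.6 CPM in the ENL knockouts (0.31 with SE 0.071 and adjusted p = 0.00313), a call lost without control replicate 1 (adjusted p = 0.0602).

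The IFIT and MX genes that rose in DOT1L-/- cells did not pass the threshold in ENL-/- cells, where edgeR's adjusted p was 0.600 for IFIT1, 0.216 for IFIT2, 0.875 for IFIT3, 0.182 for MX1 and 0.820 for MX2. HERC6 had 2, 5 and 6 fragments, MX2 had 3, 3 and 2, XAF1 had 0, 2 and 0 and MX1 had 0, 1 and 2, next to 5 and 3, 2 and 3, 0 and 1 and 0 and 0 in the controls. For HERC6 the ratio was 1.22 with a 95% interval of 0.470 to 3.41, and for MX2 it was 1.21 with an interval of 0.348 to 4.68. The libraries of both groups thus sat near the limit of detection for these genes, and differences smaller than those intervals could not be seen at this depth. HERC5 had no fragment in the ENL knockouts.

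The difference between the 2 knockouts was tested directly. Of the 32 genes, 27 passed the threshold, 23 higher in DOT1L-/- than in ENL-/- cells and 4 lower (ISG15 and the 3 IFITM genes), where 60.2% of all genes tested passed, 31.8% higher and 28.3% lower. With a log2 difference of at least 1 there were 17 higher and 1 lower, against 15.4% and 3.82% of all genes. The median was 1.11 over the 32 genes and 0.0003 over all genes tested. Here too, some of the 32, such as XAF1 and MX1, were tested only because they had counts in DOT1L-/- cells. The counts and the median therefore describe these genes and carry no further weight.

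OAS3 and USP18, which differed in opposite directions from the controls, were among the largest differences. OAS3 was at 65.2, 64.5 and 64.3 CPM in DOT1L-/- cells and 3.04, 2.19 and 2.61 CPM in ENL-/- cells, a log2 difference of 4.63 with SE 0.11 and adjusted p = 1.47e-12 in edgeR's test, or 24.7-fold. USP18 was at 7.18, 6.76 and 8.14 and 0.531, 0.438 and 0.391 CPM (3.98 with SE 0.19 and adjusted p = 7.17e-10), or 15.8-fold. SAMD9L was 15.2-fold higher in DOT1L-/- cells (3.93 ± 0.23), IFI6 5.70-fold (2.51 ± 0.18) and IRF1 3.77-fold (1.91 ± 0.091). For these 5 genes the lowest DOT1L-/- library was above the highest ENL-/- library.

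HERC6 gave 5.22 with SE 0.24 and adjusted p = 5.22e-10, MX2 gave 4.94 with SE 0.31 and adjusted p = 1.08e-08 and RSAD2 gave 2.68 with SE 0.21 and adjusted p = 9.52e-08. XAF1 had a ratio of summed counts of 91.0 with a 95% interval of 24.9 to 756, and MX1 had a ratio of 15.3 with an interval of 4.99 to 76.3. HERC5 was at 0 in all ENL-/- libraries. Its level in DOT1L-/- cells was 6.74 times the floor of 3 counts summed over the ENL-/- group. SAMD9 and DDX60, which rose in both knockouts, were also higher in DOT1L-/- than in ENL-/- cells, by 0.57 ± 0.091 and 1.41 ± 0.26. In the other direction, the log2 difference was -2.04 with SE 0.077 and adjusted p = 6.28e-11 for IFITM3 and -0.96 with SE 0.056 and adjusted p = 4.69e-09 for IFITM1. ISG15 was at 12.2, 9.76 and 11.1 CPM in DOT1L-/- and 18.6, 16.3 and 19 CPM in ENL-/- cells (-0.71 with SE 0.1 and adjusted p = 4.11e-05). STAT2, IRF9, IRF7, EIF2AK2 and BST2 did not pass, with log2 differences of 0.00 ± 0.062, 0.14 ± 0.11, -0.45 ± 0.29, 0.01 ± 0.068 and -0.12 ± 0.074. Calls lost without 1 library were those of IFITM2 (DOT1L-/- replicates 2 or 3, ENL-/- replicates 1 or 2, adjusted p 0.0584 to 0.144), PARP9 (DOT1L-/- replicates 1 or 3, ENL-/- replicates 1 or 2, 0.0766 to 0.141), and, without ENL-/- replicate 2, IFIT2 (0.0520) and PARP14 (0.0728).

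In HEL cells the DOT1L knockdown went with small changes, most of them downward. Of the 39 genes 34 were tested and 27 passed the threshold, 7 higher and 20 lower, where 55.0% of all 12635 genes tested passed, 27.0% higher and 28.0% lower. With a log2 fold change of at least 1 there was 1 gene in each direction, BST2 and TRIM22, against 3.37% and 2.47% of all genes. The median was -0.25 over the 34 genes and 0.013 over all genes tested. The HEL replicates lay close together, with a chi-square divided by its degrees of freedom of 1.48 for the control pair and 1.33 for the knockdown pair. The K562 pairs gave 4.24 to 10.2. Small changes therefore passed the threshold more easily in HEL.

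BST2 rose from 3.04 and 4.13 CPM in the HEL controls to 9.62 and 11.1 CPM in the knockdowns, a log2 fold change of 1.53 with SE 0.18 and adjusted p = 2.43e-10 in edgeR's test. RSAD2 rose from 17 and 17.2 to 28.6 and 29.9 CPM (0.77 with SE 0.092 and adjusted p = 3.96e-10). OAS3 was at 50.3 and 46.8 and 61.3 and 58.2 CPM (0.30 with SE 0.061 and adjusted p = 3.82e-05). IRF9 was at 24 and 24.1 and 31.5 and 32.5 CPM (0.41 with SE 0.083 and adjusted p = 3.29e-05). Both knockdown libraries exceeded both controls for these 4 genes. IFITM1, at 70.7 and 69.7 and 79.4 and 79.8 CPM (0.18 with SE 0.051 and adjusted p = 0.00237), also rose. MX2 was at 54.3 and 53.9 and 59 and 61 CPM (0.15 with SE 0.058 and adjusted p = 0.0268) and lost its call without either control or knockdown replicate 2 (adjusted p 0.0751 to 0.170). ISG15 was at 10.7 and 8.89 and 11.1 and 14.8 CPM (0.40 with SE 0.14 and adjusted p = 0.0128) and lost its call without control replicate 2 or knockdown replicate 2 (adjusted p 0.154 and 0.419).

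Among the genes that fell, TRIM22 changed most, from 22.6 and 19 to 10.3 and 10.3 CPM (-1.01 with SE 0.12 and adjusted p = 1.67e-10). USP18 fell from 11.3 and 12.4 to 7.48 and 6.51 CPM (-0.76 with SE 0.14 and adjusted p = 1.39e-05), and SAMD9L from 22.5 and 24.6 to 15 and 15.6 CPM (-0.62 with SE 0.1 and adjusted p = 6.81e-07). IFI44, which was undetected in K562, fell from 42.3 and 42.3 to 26.2 and 29.5 CPM (-0.60 with SE 0.077 and adjusted p = 2.08e-09). IFI6 was at 10.6 and 12.3 and 7.79 and 7.48 CPM (-0.59 with SE 0.14 and adjusted p = 0.000461). In each of these 5 genes both knockdowns lay below both controls.

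Of the IFIT genes 3 fell in HEL, with log2 changes of -0.48 ± 0.093 for IFIT2, -0.37 ± 0.087 for IFIT3 and -0.30 ± 0.1 for IFIT5. IFIT1 was at 4.87 and 5.56 and 3.42 and 4.31 CPM and did not pass (adjusted p = 0.0681). The IFIT5 call was lost without control replicate 2 or knockdown replicate 2 (adjusted p 0.0601 and 0.0765). PARP9 gave -0.41 ± 0.053, DTX3L -0.25 ± 0.042 and PARP14 -0.21 ± 0.042. STAT2 fell from 94.1 and 96.8 to 79.9 and 75.4 CPM (-0.30 with SE 0.049 and adjusted p = 1.07e-06), IRF1 from 70.9 and 68.6 to 60.0 and 59.6 CPM (-0.22 with SE 0.055 and adjusted p = 0.00055) and EIF2AK2 from 65.3 and 70.8 to 53.2 and 54.3 CPM (-0.34 with SE 0.058 and adjusted p = 1.59e-06). These 3 losses were 1.17-fold to 1.27-fold. The other falls, as log2 changes, were in SAMD9 (-0.41 ± 0.059), HERC5 (-0.36 ± 0.08), DDX60 (-0.27 ± 0.05), IFITM2 (-0.19 ± 0.043) and IFITM3 (-0.14 ± 0.047). DDX58 changed by -0.24 ± 0.076, a call lost without knockdown replicate 1 (adjusted p = 0.0582).

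Several genes with large gains in DOT1L-/- K562 cells did not pass in HEL, where they were already expressed. HERC6 was at 12.9 and 10.3 CPM in the HEL controls and 11.7 and 12.2 CPM in the knockdowns (adjusted p = 0.821), XAF1 at 6.95 and 7.86 and 8.75 and 7.24 CPM (adjusted p = 0.574) and MX1 at 2.08 and 2.54 and 3.5 and 2.44 CPM (adjusted p = 0.25). The groups overlapped for each. IFIH1 (0.03 ± 0.059), OAS1 (0.17 ± 0.28) and IFI35 (-0.28 ± 0.16) did not pass either. IRF7, OAS2, OASL, IFI27 and IFI44L had too few counts to be tested in HEL, and IFI27 had none. For IRF7 and IFI27, which are also listed on alternate sequences, low counts need not mean low expression. The 3 monocyte markers summed to 44.6 to 51.0 CPM in HEL controls and 47.3 to 49.9 CPM in the knockdowns. The 8 erythroid markers summed to 5715 to 5837 CPM in HEL controls and 7910 to 8585 CPM in the knockdowns. Among them GATA1 was lower, at 306 and 303 CPM in the controls and 285 and 300 CPM in the knockdowns. Each of the others was higher in both knockdowns than in both controls. The part of these markers in the changes was not tested.

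Whether DOT1L depletion differed between the lines was tested as an interaction in 1 fit of 9 libraries, as the HEL change minus the K562 change. Of 35 genes tested, 27 passed the threshold, 4 with a more positive change in HEL and 23 with a more negative one, where 38.9% of all genes tested passed, 19.8% and 19.1% in each direction. With a log2 difference of at least 1 there were 3 and 18 genes, against 4.85% and 7.83%. The median was -1.46 over the 35 genes and 0.0061 over all genes tested. Some of the 35 were tested only through counts in groups other than the K562 controls. These counts and this median thus describe the genes and carry no further weight. Cell line, knockout against knockdown, and counting of fragments against reads all differ between these arms and cannot be told apart.

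Of the 31 genes tested in both lines, 12 rose in DOT1L-/- K562 cells and fell in the HEL knockdown, 4 rose in both, 3 fell in both and 2 fell in K562 and rose in HEL. Over all 11644 genes tested in both lines these patterns were held by 6.26%, 8.33%, 8.76% and 6.30%. Some of the 31, such as IFIT2 and TRIM22, were tested in K562 only through their counts in DOT1L-/- cells. The numbers of genes with each pattern thus describe the list and carry no further weight. The 4 that rose in both were IRF9, OAS3, MX2 and RSAD2. The 3 that fell in both were PARP14, IFITM2 and IFITM3, and the 2 with the reverse pattern were IFITM1 and BST2. As given above, the calls of IRF9 and PARP14 in K562 and of MX2 in HEL were lost without 1 of several libraries. The largest tested differences between the lines included XAF1 (-6.60 with SE 0.57 and adjusted p = 7.26e-09), HERC6 (-5.45 with SE 0.32 and adjusted p = 2.12e-11) and MX2 (-5.01 with SE 0.36 and adjusted p = 4.77e-10), for which the HEL change was close to 0. The XAF1 difference was -5.75 without K562 control replicate 1, which leaves the single control fragment in 1 library. IFITM3 (2.74 with SE 0.091 and adjusted p = 1.88e-15), BST2 (1.99 with SE 0.2 and adjusted p = 5.12e-08) and IFITM1 (1.48 with SE 0.079 and adjusted p = 3.57e-12) differed the other way. IRF9 (0.10 ± 0.15), PARP14 (0.03 ± 0.08), IFITM2 (0.15 ± 0.088), PARP9 (-0.30 ± 0.12) and EIF2AK2 (-0.20 ± 0.1) did not pass. IFIT5, OAS1 and IFI44 were tested in this fit through their counts in HEL, and IFI44, with no fragment in any K562 library, gives no usable difference.

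**Figure D4:**
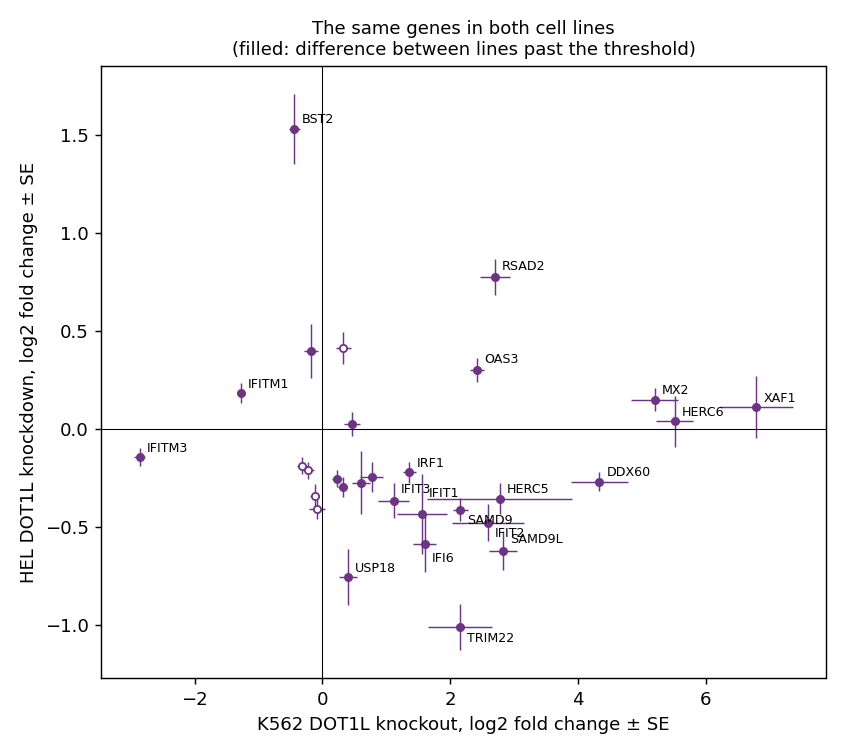
Log2 fold changes with standard errors after DOT1L knockout in K562 (horizontal) and DOT1L knockdown in HEL (vertical) for 30 of the 31 genes tested in both lines, leaving out MX1, which had no fragment in the K562 controls (filled points differed between the lines past the threshold). The horizontal spread runs from -2.86 (IFITM3) to 6.79 (XAF1), while the vertical spread runs from -1.01 (TRIM22) to 1.53 (BST2).

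Gene positions in the tables overlapped those of GRCh38.p14 for 99.98% of 24986 genes matched by symbol, and they are given on that build. The MX genes lie at chr21:41362027-41409392 (MX2) and chr21:41420558-41459214 (MX1), the SAMD9 genes at chr7:93099513-93118023 and chr7:93130054-93148399 (SAMD9L), and HERC6 and HERC5 at chr4:88378739-88443097 and chr4:88457117-88506168. IFITM3 lies at chr11:319673-320914, BST2 at chr19:17402939-17405648, OAS3 at chr12:112938474-112973251 and XAF1 at chr17:6755447-6775645. HERC6 and HERC5 are 14020 bases apart on chromosome 4. BST2 and the IFITM genes fell on different chromosomes (19 and 11). SAMD9 and SAMD9L, 12031 bases apart on chromosome 7, rose together in DOT1L-/- cells by 2.15 ± 0.12 and 2.83 ± 0.22, whereas in ENL-/- cells SAMD9 rose by 1.58 ± 0.12 and SAMD9L changed by -1.10 ± 0.36. OAS3 (6284 bases from OAS1 and 5218 from OAS2) was at 10.9 and 13.3 CPM in K562 controls, where both neighbours were at or near 0. In HEL controls OAS3 was at 50.3 and 46.8 CPM, OAS1 at 1.84 and 2.38 CPM and OAS2 at 0 and 0.238 CPM.

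The promoter motifs were set beside the calls. Of the 20 genes with an ISRE match, 9 were higher, 4 lower and 3 not past the threshold in DOT1L-/- K562 cells, and 4 were not tested, where 26.9% of all genes tested were higher and 24.2% lower. Of the 11 with an entry and no match, 9 were higher, none lower, 1 not past and 1 not tested. In the HEL knockdown 4 of the 20 were higher and 11 lower, and of the 11 without a match 2 were higher and 5 lower, where 27.0% of all genes tested were higher and 28.0% lower. Of the 9 genes with a GAS match, 4 were higher and 3 lower in DOT1L-/- cells, and 2 were not tested. Of the 22 with an entry and no GAS match, 14 were higher, 1 lower, 4 not past and 3 not tested.

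The genes that make, receive and pass on the interferon signal were followed as a second list of 42 genes. Of the 9 interferon genes on that list, 7 (IFNB1, IFNA1, IFNA2, IFNK, IFNE, IFNL2 and IFNL3) had no count in any library. Interferon genes outside these 9 were not looked at. IFNG had 2, 2 and 0 fragments in the DOT1L knockouts and none in the other K562 groups, and IFNL1 had 1 and 1 reads in the HEL knockdowns and none in the HEL controls. A count of 0 allows up to 0.0703 CPM over the K562 controls and 0.0412 CPM over the DOT1L knockouts (3 counts, counting error only).

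Among the 26 genes of the second list that were tested in K562, 11 passed in DOT1L-/- cells (6 higher, 5 lower), where 51.1% of all genes did. Of the 6 receptor genes, 3 passed, 2 higher and 1 lower. The type I receptor genes did not pass, with changes of 0.16 ± 0.07 for IFNAR1 and 0.09 ± 0.097 for IFNAR2. The type III receptor gene IFNLR1 had 0 and 2 fragments in the controls and 12, 36 and 17 in the DOT1L knockouts. It had 0 in each ENL-/- library, and was tested in K562 only through its counts in the DOT1L knockouts. IKBKE, a kinase that activates IRF3 and IRF7, rose from 4.09 and 4.49 to 9.68, 9.09 and 9.94 CPM (1.15 with SE 0.13 and adjusted p = 7.99e-06). Each IKBKE value in the knockouts was above both controls. DHX58, which encodes LGP2, a regulator of the RNA sensors, fell from 2.42 and 2.27 to 0.863, 0.878 and 0.947 CPM (-1.38 with SE 0.27 and adjusted p = 0.000695), the opposite direction to the 3 sensors of the main list. IFNGR1 rose (0.51 ± 0.092) and IFNGR2 fell (-0.90 ± 0.18), the 2 chains of the interferon gamma receptor. The IFNGR2 value is uncertain, because this gene is listed on chromosome 21 and also on an alternate sequence of it. How reads that match both were counted is not given in the sources used here. IFNGR2 had 256 and 170 fragments in the K562 controls and 2 and 13 reads in the HEL knockdowns.

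In ENL-/- cells 12 of the 26 passed (4 higher, 8 lower), where 41.0% of all genes did. SOCS1, a feedback inhibitor of JAK kinases, fell from 34.8 and 27.6 to 10.9, 12.2 and 7.75 CPM (-1.59 with SE 0.15 and adjusted p = 1.77e-06), and DHX58 was at 0.531, 1.12 and 0.651 CPM (-1.59 with SE 0.29 and adjusted p = 0.000577). In HEL 27 were tested and 17 passed (5 higher, 12 lower), where 55.0% of all genes did. JAK2 fell from 925 and 934 to 606 and 589 CPM (-0.64 with SE 0.028 and adjusted p = 8.67e-26). Both JAK2 values in the knockdowns were below both controls.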

How the data were processed

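Messenger RNA was measured by strand-marking polyadenylated RNA sequencing, per the labels' protocols. The authors deposited whole-number counts per gene, fragment counts for K562 and read counts for HEL, together with exonic lengths, and replicates were not pooled. The submitters' processing notes name fastp 0.13.1, HISAT2 2.1.0 and featureCounts 1.6.1 among their tools, and the builds hg38 and hg19, with no role or order. Whether counting used strand is not given in the sources used here.

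Genes were filtered with filterByExpr (minimum count 10, minimum total 15), scaled by TMM and tested with edgeR 4.0.16 in R 4.3.3 (glmQLFit and glmQLFTest, Benjamini-Hochberg over all genes tested, threshold 0.05). The 3 K562 groups entered 1 fit (8 libraries), HEL another (4) and the interaction one over both tables (9). Standard errors are the log2 fold change divided by the square root of F. CPM, CPM per kilobase, ratios of summed counts with exact Clopper-Pearson intervals and the floor of 3 counts were computed from the counts. Intervals and floors cover counting error only, and a ratio to a floor leaves out the counting error of the other group. The code was tested on simulated counts with known changes.

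The genes, functional groups and marker lists were chosen with earlier results of these data known. A gene of the list was described library by library where it passed the threshold in a comparison or led its group in a control. Genes of the second list were named at a log2 fold change of at least 1 and a mean of at least 1 CPM, and the interferon, receptor and JAK-STAT genes beyond that rule were chosen after their values were seen. Alternatives were other scalings, no filter, a replicate block, each library left out, a fold threshold, DESeq2 1.42.0 and fits of 2 groups.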

Additional observations from a re-analysis of the deposited data

Results flagged for a closer look

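The interaction test found 27 genes whose change after DOT1L depletion differed between HEL and K562 past the threshold of edgeR's adjusted p, out of 35 tested. Some of the 35 were tested only through counts in groups other than the K562 controls. The values below are the HEL log2 change minus the K562 log2 change.

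The HEL change was the more negative one in 23 genes. It was lower by a wide margin in XAF1 (-6.60), HERC6 (-5.45), MX2 (-5.01) and DDX60 (-4.57), each of which held 8 or fewer fragments in the K562 controls. MX1 gave -6.51, a fitted value that depends on the prior count because both K562 controls were at 0. Among the effectors the differences were -3.43 for SAMD9L, -2.55 for SAMD9, -3.14 for TRIM22, -1.91 for RSAD2 and -2.10 for OAS3. The IFIT genes gave -1.97 (IFIT1), -3.05 (IFIT2, -2.30 without K562 control replicate 1 and -4.50 without replicate 2), -1.46 (IFIT3) and -3.34 (IFIT5, with 2 fragments in the K562 controls). HERC5 gave -3.10, a call lost without K562 control replicate 1 (adjusted p = 0.0911). IFI6 gave -2.17, IFI35 -0.86 and USP18 -1.14. The sensors gave -1.00 (DDX58) and -0.42 (IFIH1), and the IFIH1 call was lost without K562 control replicate 2, HEL control replicate 1 or HEL knockdown replicate 1 (adjusted p 0.0578 to 0.0965). IRF1 gave -1.56, STAT2 -0.60 and DTX3L -0.46.

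The HEL change was the more positive one in IFITM3 (2.74), BST2 (1.99), IFITM1 (1.48) and ISG15 (0.60). The ISG15 call was lost without K562 control replicate 2, DOT1L-/- replicate 2, HEL control replicate 2 or HEL knockdown replicate 2 (adjusted p 0.0571 to 0.226). Groups of 2 or 3 libraries were too small to look for single outlying libraries.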

How the results depend on the processing

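No gene of the list changed direction in a called comparison under any alternative that was run. Requiring a log2 fold change of at least 1 left 17 genes in DOT1L-/- cells, 5 in ENL-/- cells and 2 in HEL. With 1 library left out, the number past the threshold ran from 21 to 28 in DOT1L-/- cells, 11 to 16 in ENL-/- cells, 23 to 28 between the knockouts, 24 to 26 in HEL and 26 to 28 in the interaction. Calls held under each alternative for 21 of 27 genes in DOT1L-/- cells, 9 of 16 in ENL-/- cells, 22 of 27 between the knockouts, 21 of 27 in HEL and 24 of 27 in the interaction. DESeq2 called 24, 16, 25, 21 and 26 genes. In HEL it ended the calls of DDX58, IFIT5, IFITM1, IFITM3, ISG15 and MX2. Upper-quartile scaling raised the share of higher calls over all HEL genes from 49.1% to 61.4%, while the listed genes stood at 7 higher and 18 lower. The median of the ENL-/- comparison moved between -0.20 and 0.019 and has no stable sign.

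With the replicate number as a block, 25, 16, 28, 27 and 27 genes passed. It ended the calls of IRF9 (adjusted p = 0.0629) and USP18 (0.0518) in DOT1L-/- cells. Deviations of same-numbered libraries correlated by 0.220, 0.053 and 0.095 between DOT1L-/- and ENL-/-, by 0.144 and 0.101 between control and DOT1L-/-, by 0.150 and 0.060 between control and ENL-/- and by 0.0004 in both HEL pairs. All were positive but not all above 0.1, and DOT1L-/- replicate 2 correlated more with ENL-/- replicate 3 (0.071) than with its own number, so the libraries were taken as unpaired. Low counts kept IFIT5, OAS1, OAS2, OASL, IFI27, IFI44 and IFI44L out of the K562 tests.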
